A study of Mus musculus with 39 samples.

Results

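The axon guidance and cell adhesion genes described here are 58 listed symbols of guidance ligands, their receptors, adhesion molecules, synaptic organisers and the collapsin response mediator proteins. A gene was represented by the probe set of highest mean signal among those paired with its symbol alone, which gave 55 measured members of 18193 measured genes. Ephb2 and Cadm2 had no such probe set and were not analysed here, and Igsf4a, an older symbol of Cadm1, was counted under Cadm1. The samples were photoreceptors sorted by flow cytometry for green fluorescent protein (GFP) and measured on Affymetrix mouse whole-genome arrays. In the ko group, mice lacking Nrl, which encodes the leucine zipper protein needed for rod identity, had been crossed with mice carrying GFP under the Nrl promoter. In the wt group, mice carried the same GFP transgene with Nrl intact. Per the labels, the sorted cells were S-cone-like cells in ko, and rod precursors and rods in wt. Cells of 5 ages were sorted: embryonic day 16, written E16; days 2, 6 and 10 after birth, written P2, P6 and P10; and 4 weeks, with 4 arrays in each of the 10 groups except ko E16, which had 3 (19 ko and 20 wt arrays).

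Semaphorins, ephrins, Slits and netrins are ligands that growing axons and migrating neurons meet on their path, and plexins with neuropilins, Eph receptors, Robo receptors and Dcc or Unc5 proteins are the receptors that read them. Adhesion molecules of the immunoglobulin and cadherin families join neighbouring membranes, and several of them also act in axons and synapses. In the retina these families are known mainly from ganglion cell axons and from the layering of bipolar, amacrine and photoreceptor terminals. Photoreceptors form short axons whose terminals contact bipolar and horizontal cells after birth.

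Signals were log2 values, and each is given per array or as a mean ± SD, with ko minus wt differences on the same scale. Probe sets differ in response, so that the highest mean in a family only chose a member to describe and ranks no transcript levels. A member is called where the Benjamini-Hochberg adjusted p of the limma fit was under 0.05. Where the group of lower signal had an absent call in the authors' detection calls, background may hide part of a difference, which may then be understated. Where both groups were absent only the measured values are given. Detection calls were not assigned to 4 weeks, so that differences of members near background at that age may be understated as well. The sorted cells were measured in bulk, so that fewer cells of a type and less RNA per cell cannot be told apart.

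The targeted Nrl transcript itself was lower in ko at all 5 stages, by -3.77 at E16 to -6.09 at P10 (log2). It lay between 5.36 and 6.48 in the 15 ko arrays up to P10 and at 5.66, 5.60 and 5.77 in 3 ko arrays of 4 weeks, but at 9.05 in the array labelled ko 4 weeks replicate 2. That array also held the progenitor and cell cycle markers (8 of 8 measured) at a mean of 9.67, against 6.64 and 6.77 in replicates 3 and 4 of that group. It lay above the other 3 ko arrays in 28 of the 55 members and below them in 14. Its excess over their mean was more than 1 in 12 members, among them Robo1 (10.65 against a mean of 8.25), Epha4 (8.71 against 5.54) and Efnb2 (8.69 against 5.92). A second array, ko E16 replicate 3, had the lowest spread of signals of all 39 arrays (SD 1.34, against up to 1.80). It lay more than 1 below the mean of the other 2 ko E16 arrays in 10 members, most in Plxnc1 (7.60 against 11.37) and Robo2 (6.99 against 10.48), and more than 1 above in 5. For both arrays such counts were not made over all genes. They do not tell a trait of the members from one of the whole array. These 2 arrays and the 4 others of lowest spread (wt P10 replicates 1 and 2, ko P6 replicate 4 and ko P2 replicate 4) are the 6 doubted arrays below.

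Markers of other retinal cells lay at different levels in ko and wt arrays. The 10 amacrine and horizontal cell markers averaged 6.81 to 7.02 in ko and 7.58 to 8.08 in wt arrays at E16, 6.86 to 7.03 in ko and 7.67 to 8.11 in wt arrays at P6, and 6.91 to 6.97 in ko and 7.46 to 8.12 in wt arrays at P10. At P2 the ko arrays lay at 6.82 to 6.97 and 3 wt arrays at 7.99 to 8.19, with wt replicate 1 at 7.02. At 4 weeks these markers lay at 6.53, 6.79 and 7.02 in 3 ko arrays and at 8.10 in the array labelled replicate 2, against 8.35 and 8.14 in wt replicates 1 and 4 and 6.79 and 6.96 in wt replicates 2 and 3. From E16 to P10, 4 or 5 of these markers were called present in ko and 6 or 7 in wt. Chat, Onecut1 and Lhx1, which define cholinergic amacrine and horizontal cells, were absent in both. The 7 measured ganglion cell markers separated the genotypes at E16 alone (7.23 to 7.35 in ko, 7.78 to 8.36 in wt). The progenitor and cell cycle markers did not overlap at P6 (7.02 to 7.32 in ko, 7.73 to 8.54 in wt) and at P10 (6.69 to 6.92 in ko, 6.93 to 7.32 in wt). The pigment epithelium markers were higher in every ko array at P6 (6.79 to 7.01 in ko, 6.17 to 6.54 in wt) and at P10 (6.72 to 6.95 in ko, 6.10 to 6.67 in wt), as were the bipolar markers at P6 (8.54 to 9.19 in ko, 8.04 to 8.41 in wt). Of the 6 pigment epithelium markers, 3 were called present in ko at P6 and at P10, and 0 in wt. The mean of the microglial markers was higher in every ko array at E16 (6.64 to 6.87 in ko, 6.31 to 6.50 in wt) and at 4 weeks (6.77 to 7.15 in ko, 6.53 to 6.64 in wt). At E16, however, 0 of these 6 markers were called present in ko and 1, Csf1r, in wt. The E16 means therefore lie in the range of background, and calls were not assigned to 4 weeks. In wt at 4 weeks, the cone markers lay at 8.12 and 8.35 in replicates 2 and 3 and at 9.92 and 9.49 in replicates 1 and 4, a split like that of the amacrine markers. Nrp1, Nfasc, Cadm3 and Cbln2 were each lower in wt replicates 2 and 3 than in 1 and 4. The part of these markers in the differences below was not tested.

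**Figure D1:**
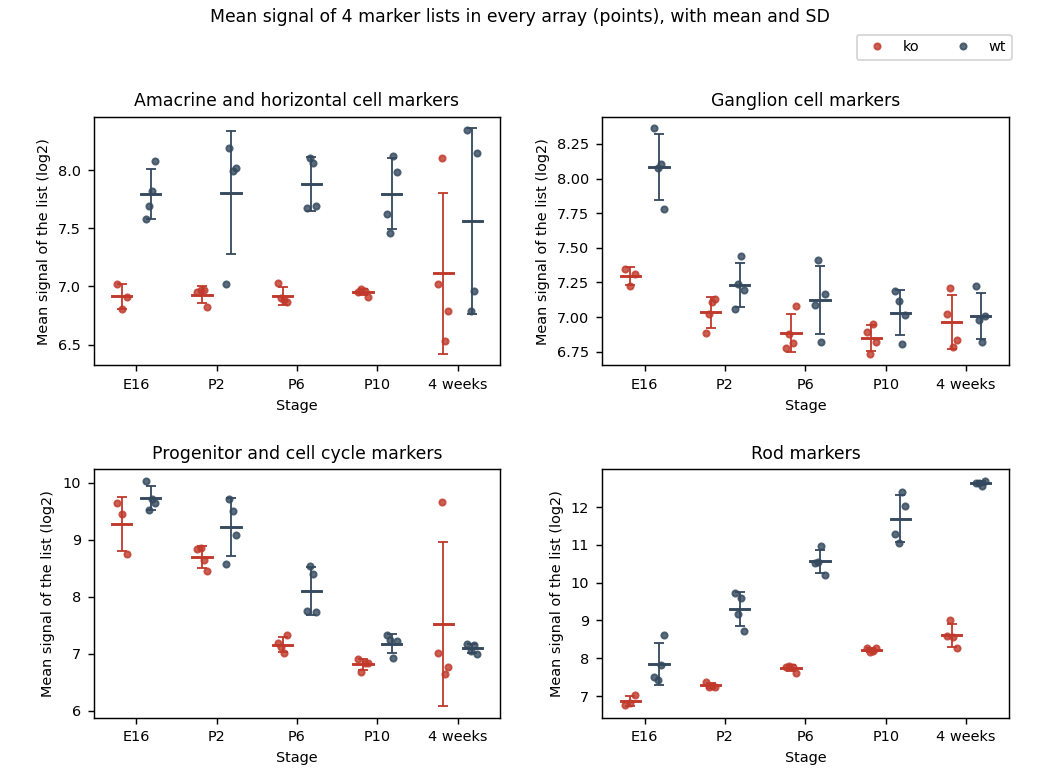
Mean log2 signal of 4 marker lists in every array (points) by stage for ko and wt, with bars for the mean and SD of the 3 or 4 arrays. At 4 weeks the rod markers lay at 8.27 to 9.01 in ko and 12.56 to 12.70 in wt, and amacrine and horizontal cell markers were higher in most wt arrays, with 1 ko array of 4 weeks at 8.10.

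Between ko and wt, 11 of the 55 members were called at 1 stage or more, 6 of them at 1 stage, 2 at 2 stages and 3 at 3 stages. Counts over several stages were not made for all genes, so that only the counts of each stage below have a share beside them. At E16, Nrcam, L1cam, Cbln2 and Crmp1 were lower in ko (4 of 55 members, against 0.819% of all genes called lower) and 0 were higher (against 0.308%). At P2 Robo1 was lower in ko (1 of 55, against 0.220% of all genes) and 0 were higher (against 0.126%). At P6 Robo1, Nfasc and Cadm1 were lower (3 of 55, against 0.748%) and 0 were higher (against 0.797%). At P10 Nfasc, Unc5c and Cadm1 were lower (3 of 55, against 0.868%) and Nrcam, Nrp1 and Sema7a higher (3 of 55, against 1.95%). At 4 weeks Nfasc and Cadm1 were lower (2 of 55, against 2.62%) and Nrcam, Nrp1 and Cadm3 higher (3 of 55, against 2.11%). Over the 5 stages in order, 19, 9, 10, 14 and 10 members had an unadjusted p under 0.05, against 14.6%, 5.11%, 11.1%, 14.2% and 11.6% of all genes. The median difference over the members was -0.22, -0.10, -0.09, -0.14 and 0.08 from E16 to 4 weeks, beside 0.07, 0.03, -0.02, -0.06 and 0.03 over all genes. The arrays of the genotypes did not overlap in 15 members at E16, all of them lower in ko (against 5.27% of all genes lower and 3.12% higher). At P2 this held for 6 members, all lower (against 2.62% lower and 3.02% higher), and at P6 for 7 lower (5.56%) and 1 higher (2.59%). At P10 it held for 10 lower (4.28%) and 5 higher (3.17%), and at 4 weeks for 1 lower (5.84%) and 4 higher (4.18%).

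**Figure D2:**
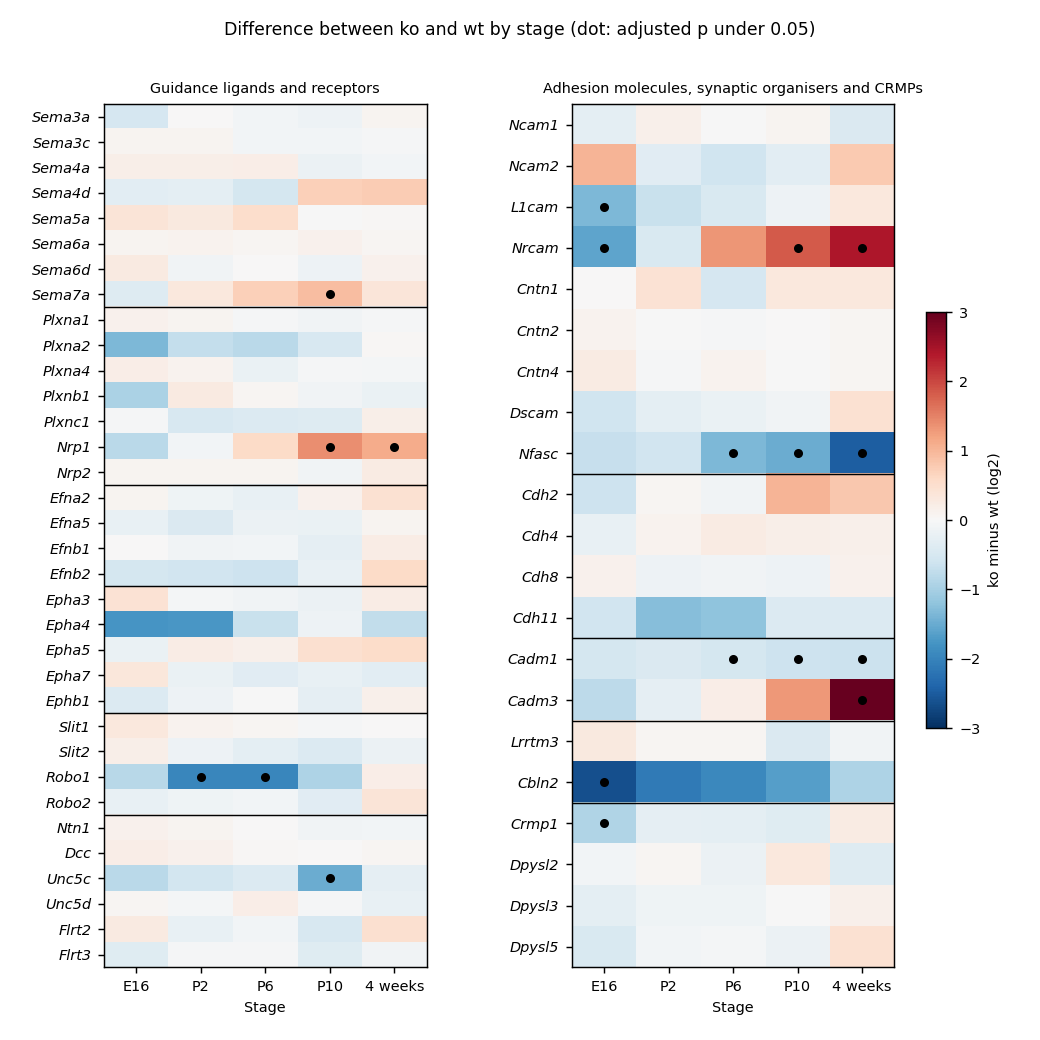
Difference between ko and wt (log2, colour) for all 55 measured members (rows, grouped by family) at 5 stages (columns), with a dot where the limma adjusted p was under 0.05 and colours ending at 3 in either direction. Of the 19 dots, those at E16, P2 and P6 all mark lower signal in ko, and 6 of the 11 at P10 and 4 weeks mark higher signal in ko.

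The genotype difference itself changed with stage in Nrcam, Nfasc, Nrp1 and Cadm3 (4 of 55 members, against 3.14% of all genes, by an F test over the 4 later stages against E16). Nrcam, Nfasc and Cadm3 are membrane proteins of the immunoglobulin superfamily, and Nrp1 is a receptor subunit for class 3 semaphorins and for vascular endothelial growth factor. Their promoter windows are shown because these 4 members carry the stage dependence. Each window runs from 250 bases before to 50 bases after a transcription start, from RefSeq on GRCm38.p6. Capitals mark TGCTGA, the core of the Maf response element that Nrl binds, or TAATCC, the core bound by the photoreceptor homeodomain factors Crx and Otx2, both searched on either strand. Nfasc has 2 windows, one for each of 2 start sites.
Nfasc at chr1:132707277-132707576, minus strand: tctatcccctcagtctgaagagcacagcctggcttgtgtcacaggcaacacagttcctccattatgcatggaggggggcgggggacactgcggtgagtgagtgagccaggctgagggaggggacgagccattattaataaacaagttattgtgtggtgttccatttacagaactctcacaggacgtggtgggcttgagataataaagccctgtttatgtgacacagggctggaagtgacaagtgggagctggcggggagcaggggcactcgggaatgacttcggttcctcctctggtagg
Nfasc at chr1:132642809-132643108, minus strand: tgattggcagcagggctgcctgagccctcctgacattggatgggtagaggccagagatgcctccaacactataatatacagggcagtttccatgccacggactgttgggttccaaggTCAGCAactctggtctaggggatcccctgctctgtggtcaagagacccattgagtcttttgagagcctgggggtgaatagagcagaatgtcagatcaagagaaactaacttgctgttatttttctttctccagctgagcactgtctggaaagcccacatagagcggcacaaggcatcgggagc
Cadm3 at chr1:173367646-173367945, minus strand: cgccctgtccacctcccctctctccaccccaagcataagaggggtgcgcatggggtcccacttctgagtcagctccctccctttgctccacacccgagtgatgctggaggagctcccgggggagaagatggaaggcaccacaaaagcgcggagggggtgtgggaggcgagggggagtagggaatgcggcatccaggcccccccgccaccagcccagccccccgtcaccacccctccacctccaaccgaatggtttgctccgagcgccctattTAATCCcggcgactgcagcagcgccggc
Nrp1 at chr8:128358823-128359122, plus strand: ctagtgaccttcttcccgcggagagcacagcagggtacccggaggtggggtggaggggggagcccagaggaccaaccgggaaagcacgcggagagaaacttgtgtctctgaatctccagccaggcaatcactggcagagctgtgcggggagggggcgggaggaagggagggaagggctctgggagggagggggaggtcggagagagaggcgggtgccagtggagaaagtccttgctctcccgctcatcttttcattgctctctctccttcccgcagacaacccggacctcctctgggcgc
Nrcam at chr12:44328635-44328934, plus strand: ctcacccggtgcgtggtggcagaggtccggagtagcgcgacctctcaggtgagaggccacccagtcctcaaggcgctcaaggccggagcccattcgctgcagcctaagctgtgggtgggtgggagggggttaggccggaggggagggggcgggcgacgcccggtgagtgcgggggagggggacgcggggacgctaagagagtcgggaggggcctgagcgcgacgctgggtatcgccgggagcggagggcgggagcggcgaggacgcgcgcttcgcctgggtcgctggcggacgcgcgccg
In the second Nfasc window TGCTGA stands on the opposite strand (shown as TCAGCA), and the Cadm3 window holds TAATCC after the start. The Nrp1 and Nrcam windows and the first Nfasc window hold neither run of letters. Of 55 windows of the 40 measured members that had one, 7 held TGCTGA (in 6 members) and 2 held TAATCC (in Cadm3 and Dpysl5). Among all 32851 windows the shares were 19.5% for TGCTGA and 7.06% for TAATCC. A match describes these letters alone.

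Nrcam, an L1-family adhesion molecule of axons and nodes of Ranvier, was lower in ko at E16 and higher in ko at P10 and 4 weeks. At E16 it lay at 6.81, 7.15 and 7.73 in ko, against 8.89, 8.43, 9.01 and 8.90 in wt. All 3 ko arrays lay below all wt arrays (difference -1.58, SE 0.39, adjusted p 0.0375). At P2 the means were 7.62 ± 0.40 in ko and 8.08 ± 0.49 in wt, and at P6 9.28 ± 0.82 in ko and 7.96 ± 0.56 in wt, neither called (adjusted p 1 and 0.0564). At P10 Nrcam lay at 9.02, 9.69, 9.15 and 9.51 in ko, against 7.43, 7.37, 6.98 and 8.19 in wt (difference 1.85, SE 0.36, adjusted p 0.0017). By 4 weeks it lay at 9.41, 9.28, 9.53 and 9.08 in ko, against 8.14, 6.67, 6.08 and 6.68 in wt (difference 2.43, SE 0.36, adjusted p 1.33e-05). The groups did not overlap at either age, and ko arrays stayed near 9 while the wt arrays varied, with replicate 4 the highest at P10 and replicate 1 at 4 weeks. Between E16 and 4 weeks Nrcam rose in ko by 2.09 (adjusted p 0.000388) and fell in wt by 1.91 (adjusted p 0.000155), and it was the 1 member called in opposite directions in the 2 genotypes. The F test of the stage dependence gave an adjusted p of 7.10e-06. Of its other 3 probe sets, the 2 called present differed by 2.96 and 3.82 at P10 and by 3.38 and 3.08 at 4 weeks, while the one called absent differed by 0.06 and 0.15. The E16 differences of these 3 probe sets are not given here. The call at E16 was lost when any of 5 of the 7 E16 arrays was left out (adjusted p up to 0.122, without ko replicate 1). It was also lost in 3 of 8 other settings: the mean over probe sets, quantile normalization and the E16 arrays fitted alone. With the mean over probe sets and with quantile normalization the E16 difference was also smaller in size.

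Nfasc encodes neurofascin, an L1-family molecule that anchors at the axon initial segment and the paranode. It was called lower in ko from P6 on. At E16 and P2 the arrays were also apart, though neither stage was called and the detection calls of both genotypes were absent. The means were 7.87 ± 0.31 in ko and 8.55 ± 0.07 in wt at E16. At P2 they were 7.94 ± 0.12 in ko and 8.51 ± 0.24 in wt. In ko it stayed between 7.63 and 8.26 in all 19 arrays, with an absent detection call from E16 to P10. At P6 it lay at 7.75, 7.90, 7.83 and 8.20 in ko, against 9.18, 9.22, 9.41 and 9.30 in wt (adjusted p 0.000709), and the call of wt was absent too. At P10 it lay at 8.18, 8.16, 8.26 and 8.14 in ko, against 9.08, 8.93, 10.63 and 10.08 in wt. Here the wt call was present, and the difference of -1.49 (SE 0.23, adjusted p 8.18e-05) may be understated. All 4 wt arrays lay above all ko arrays, and wt replicates 1 and 2, which are among the doubted arrays, were the lower ones: without the 6 doubted arrays the difference was -2.17. With limma fitted to the P10 arrays alone, the P10 call was lost (adjusted p 0.126). At 4 weeks Nfasc lay at 8.10, 8.16, 8.17 and 8.03 in ko, against 10.93, 10.25, 10.06 and 11.08 in wt (difference -2.47, SE 0.23, adjusted p 2.03e-09), again without overlap. Within wt it rose by 1.13 between E16 and P10 and by 2.03 between E16 and 4 weeks (adjusted p 0.000972 and 5.31e-08). Its wt call was absent at E16, so that both rises may be understated. The ko means differed by 0.32 and 0.25 (neither called). The genotype difference changed with stage (F test, adjusted p 0.00151), and both other probe sets lay lower in ko at P10 (by -0.67 and -0.61) and at 4 weeks (by -1.03 and -0.82).

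Cadm3, a nectin-like adhesion molecule of neurons, was higher in ko at 4 weeks. Its ko arrays lay at 10.08, 10.53, 10.02 and 9.70, against 8.96, 5.21, 5.79 and 7.53 in wt. All ko arrays lay above all wt arrays, and the difference was 3.21 (SE 0.62, adjusted p 0.0006), or 3.06 without the array labelled ko 4 weeks replicate 2. The wt arrays spread over almost 4 units, and replicates 2 and 3, the lowest, were also those of low amacrine and horizontal cell markers (6.79 and 6.96, against 8.35 and 8.14 in replicates 1 and 4) and of low cone markers (8.12 and 8.35, against 9.92 and 9.49). At P2, wt replicate 1, the wt array of that stage with the lowest amacrine and horizontal cell markers, had Cadm3 at 7.50, against 10.74, 10.13 and 10.78 in the other 3. At P6 the lowest wt value of Cadm3 was in replicate 3 (9.51), where these markers lay at 8.06. The part of these markers in the Cadm3 signal was not tested. Cadm3 means were 9.71 ± 0.24 in ko and 10.50 ± 0.28 in wt at E16, and 10.06 ± 0.19 in ko and 8.76 ± 1.09 in wt at P10, neither called. In wt it fell between E16 and 4 weeks by 3.63 (adjusted p 3.62e-05), while the ko means differed by 0.37 (adjusted p 0.967). The F test gave an adjusted p of 0.0281, and its call was lost when any of 5 of the 4 weeks arrays was left out. The adjusted p became 0.0709 without the array labelled ko 4 weeks replicate 2 and at most 0.0955, without wt 4 weeks replicate 3. Without the 6 doubted arrays it was 0.0602. With the replicate number as a block it was 0.0511. Its other 2 probe sets were also higher in ko at 4 weeks, by 1.99 and 0.93.

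Nrp1 was higher in ko at P10. It lay at 8.68, 9.10, 8.70 and 8.97 in ko, against 7.61, 7.34, 7.40 and 7.51 in wt. The groups lay more than 1 unit apart with no overlap (difference 1.40, SE 0.33, adjusted p 0.0132, or 0.0607 without ko replicate 2). At 4 weeks Nrp1 lay at 6.38, 8.69, 7.27 and 7.10 in ko, against 6.94, 5.70, 5.57 and 6.80 in wt (difference 1.11, SE 0.33, adjusted p 0.0493). These groups overlapped, and the highest ko value was in the array labelled replicate 2, without which the difference was 0.67 (adjusted p 0.361). At E16, P2 and P6 no call was made, with means of 8.37 ± 0.66, 8.89 ± 0.40 and 9.67 ± 0.42 in ko and of 9.17 ± 0.08, 8.97 ± 0.34 and 9.09 ± 0.27 in wt. In wt Nrp1 fell by 1.71 between E16 and P10 and by 2.92 between E16 and 4 weeks (adjusted p 0.000546 and 4.91e-08), while in ko the changes were 0.49 and -1.01 (adjusted p 0.58 and 0.091). The stage dependence of the genotype difference had an adjusted p of 0.0231 (F test), or 0.061 without ko E16 replicate 3.

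**Figure D3:**
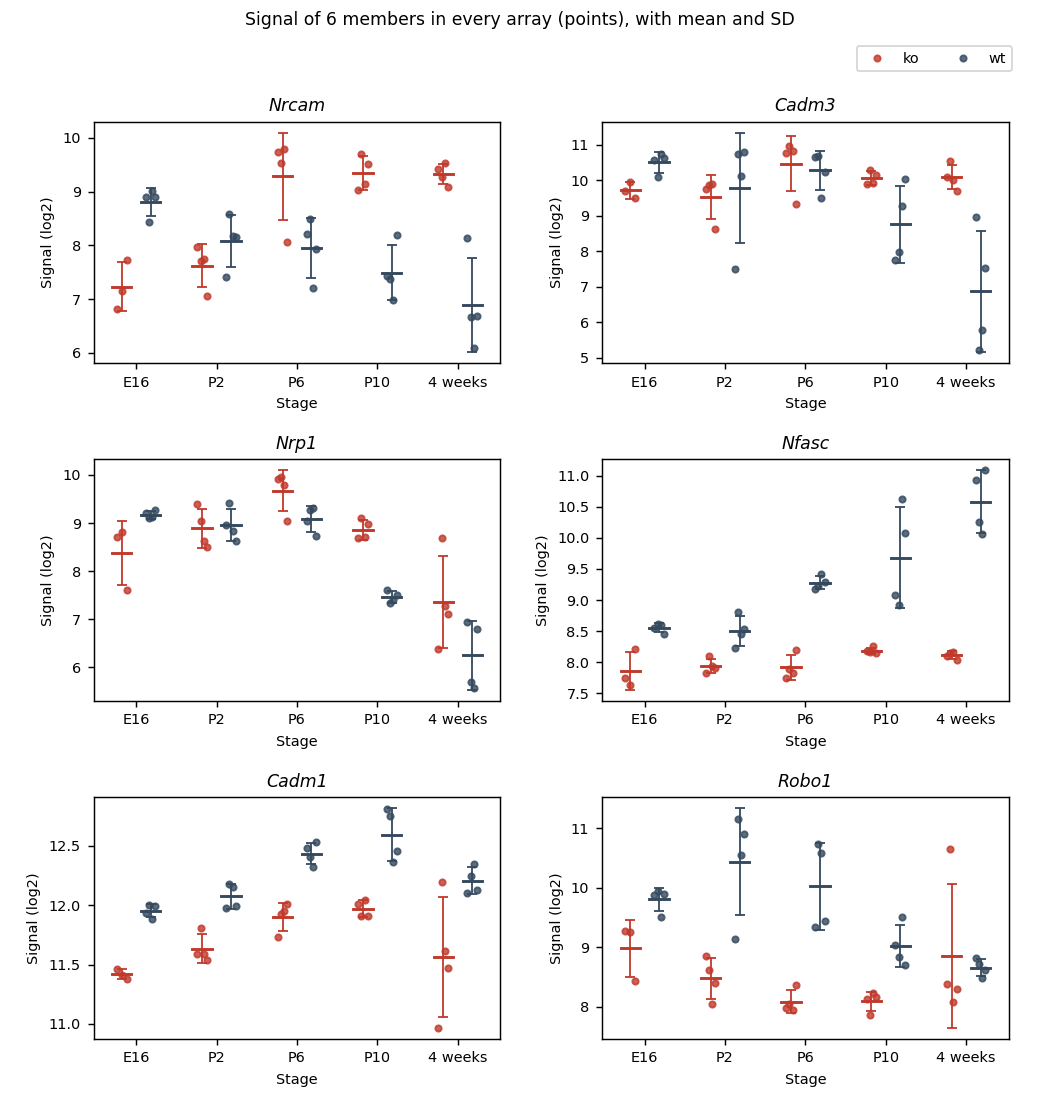
Log2 signal of Nrcam, Cadm3, Nrp1, Nfasc, Cadm1 and Robo1 in every array (points) by stage for ko and wt, with bars for the mean and SD of the 3 or 4 arrays. Nrcam lies below wt at E16 and above it at P10 and 4 weeks in ko, Nfasc lies at a mean of 8.12 in ko and 10.58 in wt at 4 weeks, and the array labelled ko 4 weeks replicate 2 is the ko point at 10.65 for Robo1.

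Among the 8 semaphorins, Sema7a was the only one called between genotypes. Sema7a is a membrane-anchored semaphorin that binds Plxnc1 and integrins. At P10 it lay at 8.72, 9.46, 8.58 and 8.97 in ko, against 7.67, 7.48, 8.34 and 8.56 in wt. The lowest ko array exceeded the highest wt array by a small margin (8.58 against 8.56). The difference was 0.92 (SE 0.25, adjusted p 0.0402). It was 0.48 (adjusted p 0.251) without the doubted arrays, which include both low wt arrays, and its call was lost when any of 5 of the 8 P10 arrays was left out. The other 7 semaphorins differed by -0.52 to 0.75 at all stages with no call. Sema4d, a ligand of Plxnb1 whose mean was the highest of the 8 probe sets, had 9.25 ± 1.04 in ko and 9.57 ± 0.32 in wt at E16 and 8.49 ± 1.04 in ko and 7.74 ± 0.55 in wt at 4 weeks. Sema4a, Sema5a, Sema6a and Sema6d were called absent in every column.

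Plexins and neuropilins carry semaphorin signals into the cell. Of the 7 measured, Nrp1 alone was called between genotypes. Plxna2, a receptor for class 6 semaphorins and a partner of neuropilins, had means of 7.37 ± 0.15 in ko and 8.70 ± 0.57 in wt at E16, 8.67 ± 0.33 in ko and 9.38 ± 0.35 in wt at P2, and 9.43 ± 0.63 in ko and 10.24 ± 0.25 in wt at P6. The arrays did not overlap at these 3 stages, yet the adjusted p values were 0.108, 1 and 0.418. The Sema7a receptor Plxnc1 had 10.11 ± 2.17 in ko and 10.15 ± 0.90 in wt at E16, with the ko arrays at 11.34, 11.40 and 7.60. At later stages its group means lay between 6.77 and 7.69. Plxna1, Plxna4, Plxnb1, Plxnc1 and Nrp2 differed by -0.96 to 0.27 over the stages, with no call, and Plxna1 and Nrp2 were called absent in every column.

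No ephrin (0 of 4) and no Eph receptor (0 of 5) was called between genotypes at any stage by limma, although the unadjusted p was under 0.05 in 2 of 20 pairs of an ephrin and a stage and in 4 of 25 pairs of a receptor and a stage. Over all genes this share was 11.3% of pairs. Ephrin-B2 (Efnb2) had the largest difference among the ephrins, with 6.46 ± 0.25 in ko and 7.08 ± 0.38 in wt at P6 (adjusted p 0.635). Efnb1, of highest mean signal among the ephrin probe sets, had group means between 9.19 and 9.66 throughout and differences from -0.28 to 0.22. Efna2 and Efna5, ligands of EphA receptors, differed by -0.43 to 0.45. Among the receptors, Epha4, which binds ephrins of both classes, differed most. At E16 it lay at 6.20, 6.41 and 5.38 in ko, against 8.24, 7.70, 7.47 and 7.69 in wt, without overlap (difference -1.78, adjusted p 0.183). At P2 it lay at 5.35, 5.23, 5.27 and 5.62 in ko, with an absent call, against 5.62, 8.19, 7.70 and 6.96 in wt, and the low wt value was in replicate 1, the array of low amacrine markers. Epha5 had 8.28 ± 0.24 in ko and 7.81 ± 0.16 in wt at P10 (adjusted p 0.36), without overlap. Epha3, Epha7 and Ephb1 differed by -0.41 to 0.42.

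Slits are secreted ligands, and Robo receptors bind them. Robo1 was lower in ko at P2 and P6, while the other 3 members of this family were not called between genotypes. At P2 Robo1 lay at 8.85, 8.62, 8.05 and 8.39 in ko, against 9.14, 11.15, 10.55 and 10.89 in wt (difference -1.96, SE 0.40, adjusted p 0.0135). All ko arrays lay below all wt arrays, and wt replicate 1 was again the lowest, as it was for progenitor markers (8.57, against 9.09 to 9.72 in the other wt arrays). At P6 it lay at 7.97, 8.04, 7.94 and 8.36 in ko, against 9.35, 10.73, 10.58 and 9.45 in wt (difference -1.95, SE 0.40, adjusted p 0.0051). The wt arrays split into a higher pair, replicates 2 and 3, which also had the higher amacrine markers (8.11 and 8.06, against 7.67 and 7.69) and the higher progenitor markers (8.54 and 8.40, against 7.76 and 7.73), and a lower pair, both above all ko arrays. At P10 the means were 8.09 ± 0.16 in ko and 9.02 ± 0.35 in wt without overlap and not called. The P6 call held with any 1 array left out, whereas the P2 call was lost without ko replicate 3 or without wt replicate 2, 3 or 4 (adjusted p up to 0.12). The difference was measured by 1 probe set, since the other 2 differed by -0.14 and 0.08 at P2 and by 0.16 each at P6. Slit2 had group means between 9.05 and 10.09 with differences of -0.40 to 0.17, and Robo2 differed by -0.33 to 0.38. Slit1 was called absent throughout.

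Netrin-1 acts through Dcc and through Unc5 receptors, and Flrt proteins bind Unc5 receptors as well. In this group of 6, Unc5c alone was called between genotypes, at P10. It lay at 6.35, 6.26, 6.43 and 6.46 in ko, with an absent call, against 7.63, 7.47, 8.14 and 8.19 in wt. The gap between the groups was about 1 unit. The difference of -1.48 (SE 0.21, adjusted p 2.21e-05) may be understated, and its call held with any 1 array left out. Its other probe set, called absent in every column, differed by -0.22. At the other stages Unc5c differed by -0.81 to -0.27 without a call. Netrin-1 (Ntn1), Dcc, Unc5d and Flrt3 were called absent in every column, with differences between -0.36 and 0.19. Dcc, of highest mean signal in the group, differed by 0.01 to 0.19. Flrt2 differed by -0.48 to 0.49. In all, 14 of the 55 members were called absent in every column, 10 of them with another probe set called present, and none of the 14 was called between genotypes.

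The collapsin response mediator proteins are cytoplasmic and act on microtubules downstream of semaphorin receptors. Crmp1 was lower in ko at E16, at 9.01, 8.67 and 8.31, against 10.08, 9.19, 9.80 and 9.18 in wt. Every ko array lay below every wt array, with a gap of less than 0.2 (difference -0.90, SE 0.23, adjusted p 0.0437). The call was lost when any of 4 of the 7 E16 arrays was left out, with -0.72 (adjusted p 0.147) without ko replicate 3. Dpysl3, of highest mean signal in the family, had 12.18 ± 0.06 in ko and 12.47 ± 0.12 in wt at E16 without overlap (adjusted p 0.084). Dpysl2 and Dpysl5 differed by -0.45 to 0.46.

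Of the 9 immunoglobulin-type adhesion molecules, Nrcam, Nfasc and L1cam were called between genotypes. L1cam, an axonal adhesion molecule abundant on ganglion cell axons, was lower in ko at E16. It lay at 8.08, 8.26 and 8.18 in ko, against 10.17, 8.74, 9.79 and 9.41 in wt. The ko arrays were close together and the wt arrays spread over more than 1 unit, without overlap (difference -1.35, SE 0.28, adjusted p 0.00936). The call was lost without any of 3 arrays (adjusted p up to 0.0626). At this stage the ganglion cell markers also lay lower in ko, with 5 of 7 called present in ko and 6 of 7 in wt. Later L1cam differed by -0.66, -0.45, -0.16 and 0.32, with no call. Ncam1, the neural cell adhesion molecule and the highest of the 9 probe sets in mean signal, had group means between 12.15 and 12.79, and it differed by -0.44 to 0.15. Ncam2 varied most within groups, with 8.07 ± 0.42 in ko and 8.39 ± 1.90 in wt at P10. Cntn1, Cntn2, Cntn4 and Dscam differed by -0.61 to 0.46.

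The 4 cadherins, which bind like molecules on neighbouring cells, were not called between genotypes at any stage by limma, with an unadjusted p under 0.05 in 6 of 20 pairs of a cadherin and a stage (against 11.3% of pairs over all genes). N-cadherin (Cdh2) had 11.42 ± 0.09 in ko and 10.41 ± 0.69 in wt at P10, without overlap (difference 1.01, adjusted p 0.0508). Cdh11 lay at 8.11, 8.26, 8.29 and 8.23 in ko, against 8.74, 10.28, 9.68 and 9.30 in wt at P2 (difference -1.28, adjusted p 0.333). These groups did not overlap either, and wt replicate 1 was once more the lowest wt array. Cdh4 and Cdh8 differed by -0.23 to 0.24.

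Cadm1, a nectin-like molecule of synapses and photoreceptors, was lower in ko at P6, P10 and 4 weeks. At P6 it lay at 11.73, 11.93, 11.95 and 12.01 in ko, against 12.48, 12.41, 12.32 and 12.53 in wt (difference -0.53, SE 0.14, adjusted p 0.0468). At P10 it lay at 12.01, 11.91, 12.05 and 11.91 in ko, against 12.81, 12.75, 12.36 and 12.45 in wt (difference -0.63, SE 0.14, adjusted p 0.00707). The arrays of the genotypes did not overlap at either stage. At 4 weeks Cadm1 lay at 10.97, 12.19, 11.61 and 11.47 in ko, against 12.10, 12.24, 12.35 and 12.13 in wt (difference -0.64, SE 0.14, adjusted p 0.00282). The array labelled ko replicate 2 was the one that reached into the wt range, and without it the difference was -0.85. The lowest array, ko replicate 1, is the only one whose title adds the word retina. Without it the difference was -0.44 (limma adjusted p 0.0284). At E16 and P2 the arrays were also apart, with means of 11.42 ± 0.04 in ko and 11.95 ± 0.05 in wt at E16 and of 11.63 ± 0.12 in ko and 12.07 ± 0.10 in wt at P2, though neither was called. The P6 call was lost when any of 7 of the 8 P6 arrays was left out, and the P10 and 4 weeks calls held with any 1 array out. With limma fitted to the arrays of each stage alone, the P6, P10 and 4 weeks calls were all lost (adjusted p 0.0573, 0.0776 and 0.192).

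Cbln2, a secreted organiser of synapses that bridges neurexins and glutamate delta receptors, was lower in ko at E16. It lay at 5.87, 5.78 and 6.31 in ko, with an absent call, against 8.31, 8.26, 8.97 and 8.91 in wt. The groups were almost 2 units apart, and the difference of -2.63 (SE 0.63, adjusted p 0.0317) may be understated. In ko it was called absent from E16 to P10 and lay at or below 6.31 in all arrays except the array labelled 4 weeks replicate 2, at 7.21. In wt it was called present from E16 to P10 and varied between arrays, with 5.96 in P2 replicate 1 against 9.16, 8.05 and 8.49 in the other 3, and with 8.74 and 7.66 in 4 weeks replicates 1 and 4 against 5.80 and 5.90 in replicates 2 and 3. The wt arrays low in Cbln2 at these 2 stages were those low in amacrine and horizontal cell markers. The differences of -2.11, -1.94, -1.66 and -0.92 after E16 were not called, and the E16 call was lost without any of 5 of the 7 arrays (adjusted p up to 0.105). Lrrtm3, a postsynaptic organiser, differed by -0.44 to 0.30.

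With age, more members fell than rose in both genotypes. Between E16 and P10, 5 members rose in ko (against 2.97% of all genes) and 7 fell (against 4.38%), while 7 rose in wt (against 9.20%) and 20 fell (against 14.3%). Between E16 and 4 weeks, 2 rose in ko (against 4.12%) and 7 fell (against 3.25%), while 3 rose in wt (against 6.66%) and 22 fell (against 11.6%). In ko, the E16 group had 3 arrays, and without ko E16 replicate 3 the counts called in either direction were 15 at P10 and 14 at 4 weeks, against 12 and 9 with it. The P10 and 4 weeks comparisons of a genotype share their E16 arrays. The median change over the members was -0.03 at P10 and -0.11 at 4 weeks in ko and -0.10 and -0.36 in wt, beside -0.03 and -0.03 in ko and 0.09 and 0.05 in wt over all genes.

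In both genotypes, 7 members fell between E16 and 4 weeks. The share of all genes that fell in both was not counted. The Slit receptor Robo2 lay at 6.29, 6.96, 6.09 and 5.95 in ko at 4 weeks, against 10.41, 10.55 and 6.99 in ko at E16 (change -2.99, SE 0.47, adjusted p 3.90e-05). The low ko E16 value is that of replicate 3 and lay just above the highest 4 weeks value, and without that array the change was -4.16. In wt Robo2 lay at 5.73, 6.07, 5.83 and 6.11 at 4 weeks, against 10.22, 10.03, 9.35 and 8.56 at E16 (change -3.60, adjusted p 1.43e-07). Plxnc1 fell by 3.17 in ko and by 3.38 in wt. In ko its E16 replicate 3 (7.60) lay below the array labelled 4 weeks replicate 2 (8.02), and without the E16 array the change was -4.43. Cntn1 (contactin-1, a partner of L1-family molecules) fell by 2.45 in ko and by 2.75 in wt. Efna2 fell by 1.28 and 1.65, and Flrt2 fell by 0.82 and 1.05, in ko and in wt. Dpysl5 and Cdh4 were the other 2 members that fell in both genotypes. In Plxnc1, Robo2 and Cntn1 the fall held with any 1 array left out in both genotypes. In ko the fall of Flrt2 was lost without any of 4 arrays and that of Efna2 without ko E16 replicate 1 (adjusted p 0.295 and 0.0522 at most). In ko the fall of Dpysl5 was lost without ko E16 replicate 2 (adjusted p 0.0652), and that of Cdh4 without ko E16 replicate 1 or 4 weeks replicate 3, without the doubted arrays, with the mean over probe sets and with quantile normalization. The last 2 settings also ended the call of Cdh4 in wt.

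**Figure D4:**
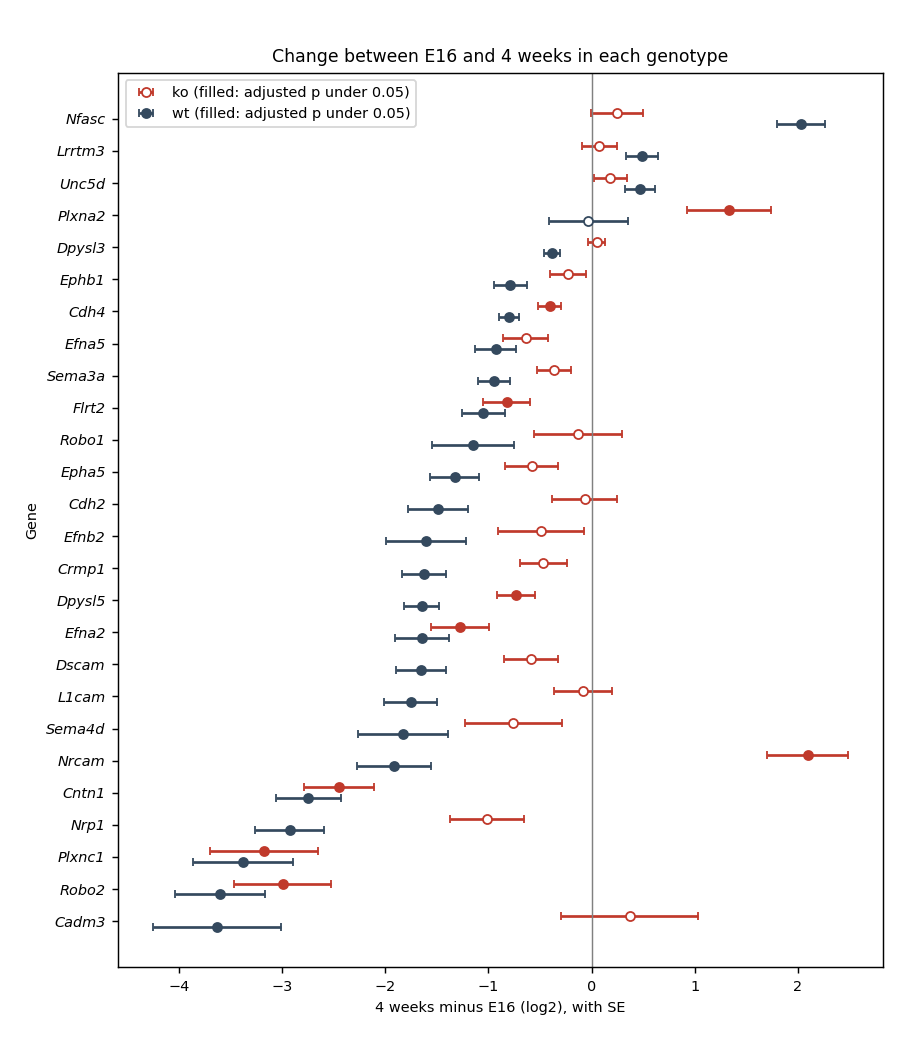
Change between E16 and 4 weeks (log2, points with SE) in ko and wt for the 26 members called in either genotype, filled where the adjusted p was under 0.05. Robo2, Plxnc1 and Cntn1 lie at -2.45 or lower in both genotypes, Nrcam lies at 2.09 in ko and -1.91 in wt, and Nfasc lies at 2.03 in wt and 0.25 in ko.

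Beside Nrcam, Plxna2 was the member that rose in ko between E16 and 4 weeks, by 1.33 (adjusted p 0.0402). Its E16 call was absent, so that the rise may be understated. Plxna2 lay at 8.37, 9.01, 8.93 and 8.49 at 4 weeks, against 7.24, 7.31 and 7.54 at E16, without overlap. Its call was lost without any of 5 of the 7 arrays, and with the replicate number as a block (adjusted p 0.0639). In wt, the largest falls by 4 weeks were those of Cadm3, Robo2, Plxnc1, Nrp1 and Cntn1 (-3.63, -3.60, -3.38, -2.92 and -2.75). Unc5d (0.47, adjusted p 0.0226) and Lrrtm3 (0.49, adjusted p 0.0222) rose in wt beside Nfasc, and their calls were lost without any of 4 and any of 2 arrays. Unc5d was called absent in every column, so that its values (6.01 ± 0.21 at 4 weeks, 5.54 ± 0.05 at E16) lie in the range of background. For members other than Nrcam, Nfasc, Nrp1 and Cadm3, the F test called no variation of the genotype difference with stage, and a difference in the change with age between ko and wt was not shown.

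Over the same ages the progenitor and cell cycle markers averaged 6.82 at P10, against 9.28 at E16, in ko, and 7.18 at P10, against 9.73 at E16, in wt. The ganglion cell markers averaged 6.85 at P10, against 7.30 at E16, in ko, and 7.03 at P10, against 8.08 at E16, in wt. Their part in the fall of the members was not tested. In the array labelled ko 4 weeks replicate 2, where progenitor markers were at 9.67, Plxnc1 lay at 8.02 and Robo2 at 6.96, against E16 values above 10 in the other 2 ko arrays.

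Of 22 other guidance ligands, 1 was lower in ko at P6 and 1 higher at 4 weeks, and of 17 other guidance receptors 1 was higher at P6, with no other call at any stage. Of 23 measured signalling genes outside the member list, 2, 0, 1, 1 and 3 were called over the 5 stages in order, and of 37 other adhesion molecules 1, 1, 2, 3 and 1. Over all genes 1.13%, 0.346%, 1.54%, 2.81% and 4.73% were called. Sema4g, a class 4 semaphorin, was lower in ko at P6, with 7.51 ± 0.14 in ko and an absent call, against 8.78 ± 0.28 in wt (difference -1.27, adjusted p 0.0089). The Eph receptor Epha8 was higher at P6, with 10.12 ± 0.53 in ko and 8.91 ± 0.06 in wt (adjusted p 0.00408). Rgmb, a membrane ligand of neogenin, had 7.85 ± 0.27 in ko and 7.28 ± 0.15 in wt at 4 weeks (adjusted p 0.0149), with absent calls in both genotypes up to P10.

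Trio, a guanine nucleotide exchange factor that acts downstream of Dcc, was higher in ko at P10 (10.52 ± 0.18 in ko, 8.22 ± 0.89 in wt with an absent call, adjusted p 0.00465) and at 4 weeks (difference 1.98, SE 0.50, adjusted p 0.0108). Nck2, an adaptor of Eph and Robo signalling, was higher in ko at 4 weeks, with 8.71 ± 0.81 in ko and 7.25 ± 0.34 in wt (adjusted p 0.00193). Ablim1, an actin-binding protein known from ganglion cell axon guidance, was lower in ko at 4 weeks, with 10.18 ± 0.35 in ko and 11.73 ± 0.14 in wt (adjusted p 1.95e-07). Srgap3, which binds Robo receptors, was lower in ko at P6, at 6.93 ± 0.23 with an absent call against 8.29 ± 0.36 in wt (adjusted p 0.0348). At the same stage Robo1 was lower in ko.

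Among the other adhesion molecules, Dscaml1 was lower in ko at E16 (7.23 ± 0.38 in ko, 9.15 ± 0.44 in wt, adjusted p 0.017). Alcam, an adhesion molecule of growing axons, was lower in ko at P6 (8.57 ± 0.24 in ko, 10.06 ± 0.36 in wt, adjusted p 0.00789). Pcdh17, a protocadherin, was lower at P2 and P10, where it had 7.62 ± 0.06 in ko and 8.78 ± 0.35 in wt (adjusted p 0.00169 at P10). Cntn6, a contactin, was lower at P10, with 5.76 ± 0.20 in ko and an absent call against 6.46 ± 0.18 in wt (adjusted p 0.0339).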

How the data were processed

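GFP-positive photoreceptors of ko and wt mice were measured on 39 Affymetrix mouse arrays. The authors deposited log2 signal values for 45101 probe sets, made with RMA per the submitters' processing notes. The version and settings are not given in the sources used here. Array means lay between 6.94 and 7.01 and SDs between 1.34 and 1.80. A second deposited table holds the authors' detection calls, present or absent, for each genotype and stage. How the arrays of a group were combined for them is not given in the sources used here, and the adult column of calls was not assigned to 4 weeks. No column of samples from outside the series was found (0 unused).

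Control probe sets (64) were dropped, probe sets paired with 1 gene symbol were kept (34945; 932 with several and 9160 with none were left out), and a gene was represented by the probe set of highest mean, giving 18193 genes. A model of the 10 group means was fitted to all 39 arrays with limma 3.58.1 in R 4.3.3 (lmFit and eBayes, 29 residual and 2.81 prior degrees of freedom), with Benjamini-Hochberg adjustment over all genes within each contrast and a threshold of 0.05. The contrasts were ko minus wt at each of 5 stages, P10 minus E16 and 4 weeks minus E16 in each genotype, and an F test of whether the genotype difference varied with stage. SEs come from this fit. The procedure was tested on simulated data. Precision is limited by the 3 or 4 arrays in a group. Whether the arrays of 1 group stem from different animals is not said in the labels, so p-values measure the spread between these arrays, which may be technical. No arrays were identical (highest correlation 0.995).

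The members, gene lists and tests were chosen with earlier results of these data known. Values are given for every member called between genotypes, for the member of highest mean and the one of largest difference in each family, for the 5 that rose and the 5 that fell most by 4 weeks in each genotype, and for up to 4 called genes of each pathway list. Members beyond this rule, named where a paragraph needed them, were chosen after their values were seen. Same-numbered arrays of 2 groups did not deviate together in every pair in any contrast (correlations from -0.72 to 0.76), so the numbers were not treated as pairs. Alternatives were the mean over probe sets, quantile normalization, array weights, a fit of each stage alone, a replicate block, leaving out the 6 doubted arrays and leaving out each array in turn.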

Additional observations from a re-analysis of the deposited data

Results flagged for a closer look

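In 4 members the genotype difference itself varied with stage by the limma F test over 4 contrasts. The adjusted p was 7.10e-06 for Nrcam, which was lower in ko at E16 and higher in ko at P10 and 4 weeks. It was 0.00151 for Nfasc, whose deficit in ko was -1.49 at P10 and -2.47 at 4 weeks. It was 0.0231 for Nrp1, higher in ko at P10, and 0.0281 for Cadm3, higher in ko at 4 weeks. The F test call of Nrp1 was lost without ko E16 replicate 3, and that of Cadm3 without any of 5 arrays. Among all 495 groups of 4 arrays of a member, the gap of 1 array to the others over the range of the group exceeded Dixon's critical value in 34 (6.87%, where chance gives about 5%). In ko 4 weeks 6 groups exceeded it, each through the array labelled replicate 2. The array labelled ko 4 weeks replicate 2 was the highest in Efna2 (0.886), Efnb2 (0.930), Epha4 (0.855), Robo1 (0.882) and L1cam (0.857) and the lowest in Plxna1 (0.923), and ko P2 replicate 4 was the lowest in Plxna2 (0.912), Plxnb1 (0.952), Dscam (0.841) and Cadm3 (0.875). The array ko P6 replicate 1 was the highest in Sema4d (0.927) and Dpysl5 (0.832), and ko P2 replicate 3 was the highest in Epha3 (0.836) and Slit2 (0.835). The array ko P10 replicate 2 was the lowest in Slit1 (0.837) and Lrrtm3 (0.935), and ko P6 replicate 4 was the lowest in Nrcam (0.851) and Cadm3 (0.875) and the highest in Nrp2 (0.929). The array wt P2 replicate 1 was the highest in Sema6a (0.910), and wt E16 replicate 2 was the lowest in Sema7a (0.876) and the highest in Cntn2 (0.902). The array wt P10 replicate 4 was the highest in Plxna1 (0.842), and ko P10 replicate 4 was the highest in Plxnc1 (0.873). The array ko P10 replicate 1 was the highest in Efnb1 (0.8292), and wt P2 replicate 2 was the lowest in Epha3 (0.904). The array wt E16 replicate 1 was the highest in Epha5 (0.836), and wt E16 replicate 3 was the lowest in Robo1 (0.840). The array wt P10 replicate 1 was the highest in Robo2 (0.923), and wt P10 replicate 3 was the lowest in Ntn1 (0.878). The array wt 4 weeks replicate 2 was the lowest in Ncam1 (1), and ko P2 replicate 2 was the highest in Cadm1 (0.8295). In Ncam1 the ratio of 1 comes from a tie, since wt 4 weeks replicates 1, 3 and 4 all held 12.599, against 12.578 in replicate 2. The array wt P6 replicate 2 was the highest in Cbln2 (0.898), and wt P6 replicate 3 was the highest in Crmp1 (0.873). The ratio of the gap to the range stands in brackets.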

How the results depend on the processing

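Leaving out each array in turn gave 0 to 6 members called between genotypes at E16 and 0 to 2 at P2. It gave 2 to 5 at P6, then 4 to 9 at P10 and 4 to 6 at 4 weeks. Between E16 and P10 it gave 8 to 15 in ko and 22 to 36 in wt, between E16 and 4 weeks 5 to 14 in ko and 23 to 25 in wt, and for the F test 3 to 7. The mean over the probe sets of a gene gave 6 members at P6, 9 at 4 weeks and 14 between E16 and 4 weeks in ko. Quantile normalization gave 1 at E16, 2 at P2, 6 at P6 and 9 by the F test. Array quality weights, estimated gene by gene because the other estimate did not converge, gave 19, 8, 17, 21 and 11 between genotypes in order of stage, 25 and 26 in ko at P10 and 4 weeks against E16, 45 in wt at P10 against E16, and 32 by the F test. Without the 6 doubted arrays 10 members were called at E16, 6 at P6, and 21 and 25 in ko at P10 and 4 weeks against E16. The arrays of a stage fitted alone, with fewer arrays behind the spread, gave 1 at E16, 0 at P2, 3 at P10 and 3 at 4 weeks. Beside those of Cadm1, this fit lost the calls of L1cam, Nrcam and Crmp1 at E16 and of Robo1 at P2. It also lost those of Sema7a and Nfasc at P10 and of Nrp1 at 4 weeks. The probe set of highest mean among those called present, an alternative chosen after seeing the data, gave 5 at P6. For the other settings the cause of the change was not tested. The shares of all genes called under each setting of this section are not given here. The counts therefore do not tell a change in the members from a change in all genes. With a replicate block the counts were 5, 1, 3, 6 and 5 between genotypes from E16 to 4 weeks, 12 and 8 in ko and 26 and 25 in wt with age, and 3 by the F test. Over single members, 1554 values were recomputed. They include the adjusted p values of the F test, which have no direction and could not reverse. Of the 1554, 1399 kept the call and 155 lost it, and among the values with a direction 0 reversed.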
